A study of Mus musculus with 378 samples.

Results

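Single CD8 and CD4 T cells from B16F10 tumours of wild-type (WT) mice were compared by the RNA they held. The cells were taken by the title of each library, which had to mark it as a single cell and to hold WT and either CD8 or CD4, and by a minimum of 1000 genes above 0 FPKM (fragments per kilobase of transcript, scaled to the size of the library). This left 67 of 94 WT CD8 and 79 of 94 WT CD4 libraries, out of 374 single-cell libraries in the series. The CD8 titles also hold p2 and the CD4 titles p3, and each side's titles carry an animal word of their own (cat for CD8, dog for CD4). The labels explain neither, so these cannot be told apart from the difference between CD8 and CD4. The labels name no animal or tumour. Each side is therefore 1 sorted set with its cells as parts, no test between the sides was possible, SDs are over cells, and intervals on shares cover counting error only.

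The series asks which genes the cytokine IL-27 induces in T cells of the tumour, and holds the same 2 cell types from mice labelled Il27ra KO, a knockout of the IL-27 receptor chain. B16F10 is a mouse melanoma line, and the mice were C57BL/6, WT or labelled Il27ra KO, with no other treatment, age or time given. The protocol names CD8 T cells alone, while the titles also hold CD4. Single cells were sequenced with Smart-seq2, which reads whole transcripts from cells kept in separate wells. After the same minimum of genes, 74 CD8 and 78 CD4 cells labelled Il27ra KO remained, and each genotype and cell type also has 1 population library made from many cells. Both KO titles hold p2. Il27ra RNA was not found in fewer single cells labelled KO, where 52.7% of CD8 and 52.6% of CD4 cells were above 0, than in WT, where 38.8% and 48.1% were. In the CD8 population libraries its level on a log2 scale was 6.52 in KO and 5.60 in WT. For CD4 it was lower in KO, at 6.59 against 8.01. KO therefore names a label here.

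CD8 T cells recognise peptides on class I molecules, with a coreceptor made of the Cd8a and Cd8b1 chains, and kill target cells with perforin and granzymes released from granules. CD4 T cells recognise peptides on class II molecules through Cd4, and include helper cells and regulatory T cells, which are defined by the transcription factor Foxp3 and restrain other T cells. In tumours, T cells that meet antigen for long periods carry several inhibitory receptors at once, such as Pdcd1 (PD-1), Lag3 and Havcr2 (Tim-3).

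WT CD8 cells held more genes and more reads than WT CD4 cells. The number of genes above 0 FPKM ran from 1068 to 6363 in CD8 cells, with a median of 2919, and from 1050 to 5411 in CD4 cells, with a median of 2307. Reads were estimated from the steps of the low FPKM values, and had a median of 387708 in CD8 and 276270 in CD4 cells. B2m, a gene that nearly every cell uses, was listed at 0 in 8 CD8 and 6 CD4 cells, and none of Cd3d, Cd3e and Cd3g was found in 8 CD8 and 3 CD4 cells. Without the cells of either kind, 56 CD8 and 72 CD4 cells remained. At least 3 markers of myeloid cells were above 0 in 5 CD8 and 10 CD4 cells. Class II genes were found in 12 of 67 CD8 cells, with a summed level of 0 to 17.65 on the log2 scale, and in 24 of 79 CD4 cells, with 0 to 10.77. No macrophage marker reached 10% of the cells of either side, B cell markers were found in 1 CD8 and 5 CD4 cells, and the neutrophil markers were at 0 in all. NK cell markers were found in 9 CD8 cells and 1 CD4 cell. The melanocyte gene Tyr was above 0 at a low, even level in 98.5% of CD8 and 96.2% of CD4 cells, while the melanocyte gene Mlana was at 0 in all. Of the other melanoma markers, Pmel was found in 8.96% of CD8 and 10.1% of CD4 cells, Dct in 5.97% and 6.33%, and Tyrp1 in 4.48% and 5.06%. In CD4 cells they reached 1593.7 FPKM for Pmel, 712.4 FPKM for Dct and 1102 FPKM for Tyrp1. No 2 kept libraries were identical, and the highest correlation between any pair was 0.718.

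For each gene the difference between the sides was the mean over CD8 cells minus the mean over CD4 cells of log2(FPKM + 1), so a positive value means more in CD8. On one side or both, 8961 genes passed a filter of 10% of cells above 0. Of these 1265 (14.1%) were higher by at least 1 on this scale and 2.08% lower by at least 1. The median gene was 0.33 higher, 76.7% of genes were higher by some amount and 23.3% lower. This excess of higher genes was not the same in every subset of cells. In 43 cells a side matched on genes above 0, 395 genes were higher and 677 lower by at least 1, with a median of -0.01, and in cells with both Mki67 and Top2a at 0 the counts were 407 and 484. It was larger after thinning to 100000 reads, with 2194 higher and 94.2% of called genes higher, and without cells lacking B2m or the Cd3 genes, with 2217 higher and 93.8%, against 87.2% in all WT cells. Set against the median rather than against 0, 7.12% of genes were at least 1 above it and 4.0% at least 1 below. A gene that passed the 10% filter through 1 side alone leans to that side by the filter, in list counts as among all genes.

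The sorted labels were seen in the coreceptor RNAs. Cd8a, on chromosome 6 from 71373427 to 71379173 of GRCm38, ran from 0 to 2611 FPKM in WT CD8 cells, with a median of 456 FPKM, and 0 to 14.3 FPKM in WT CD4 cells, with a median of 0 FPKM. Cd8b1, the second chain of the CD8 coreceptor, lies beside it on chromosome 6 from 71322788 to 71337494, and ran from 0 to 6104 FPKM in WT CD8 cells, with a median of 1251 FPKM, and 0 to 191.7 FPKM in WT CD4 cells, with a median of 0 FPKM. Cd4, on chromosome 6 from 124864692 to 124888221, ran from 0 to 3.22 FPKM in WT CD8 cells, with a median of 0 FPKM, and 0 to 1429 FPKM in WT CD4 cells, with a median of 198.7 FPKM. CD8 cells were therefore high for both CD8 chains and near 0 for Cd4, while CD4 cells showed the opposite. Cd8a was above 0 in 56 of 67 CD8 cells (83.6%, exact 95% interval 72.5% to 91.5%) and 6 of 79 CD4 cells (7.59%, 2.84% to 15.8%), and Cd4 in 6 of 67 CD8 cells (8.96%, exact 95% interval 3.36% to 18.5%) and 63 of 79 CD4 cells (79.7%, 69.2% to 88%).

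The differences were 7.28 for Cd8b1, 6.87 for Cd8a and -6.12 for Cd4. Cd8b1 was also above 0 in 19 CD4 cells, but above 10 FPKM in 2.53% of them. After thinning each cell to 100000 reads, which left 53 CD8 and 70 CD4 cells, Cd8b1 was found in 86.8% of CD8 and 10% of CD4 cells, and Cd4 in 0% of CD8 and 84.3% of CD4 cells. Neither coreceptor was found in 4 CD8 and 11 CD4 cells, so the label of these cells has no check in coreceptor RNA. Runx3, the factor that silences Cd4 in CD8 cells, differed by 1.99, Zbtb7b (ThPOK), which directs cells to the CD4 lineage, by -1.05, and Cd40lg, the ligand by which helper cells activate B cells, by -2.18.

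**Figure D1:**
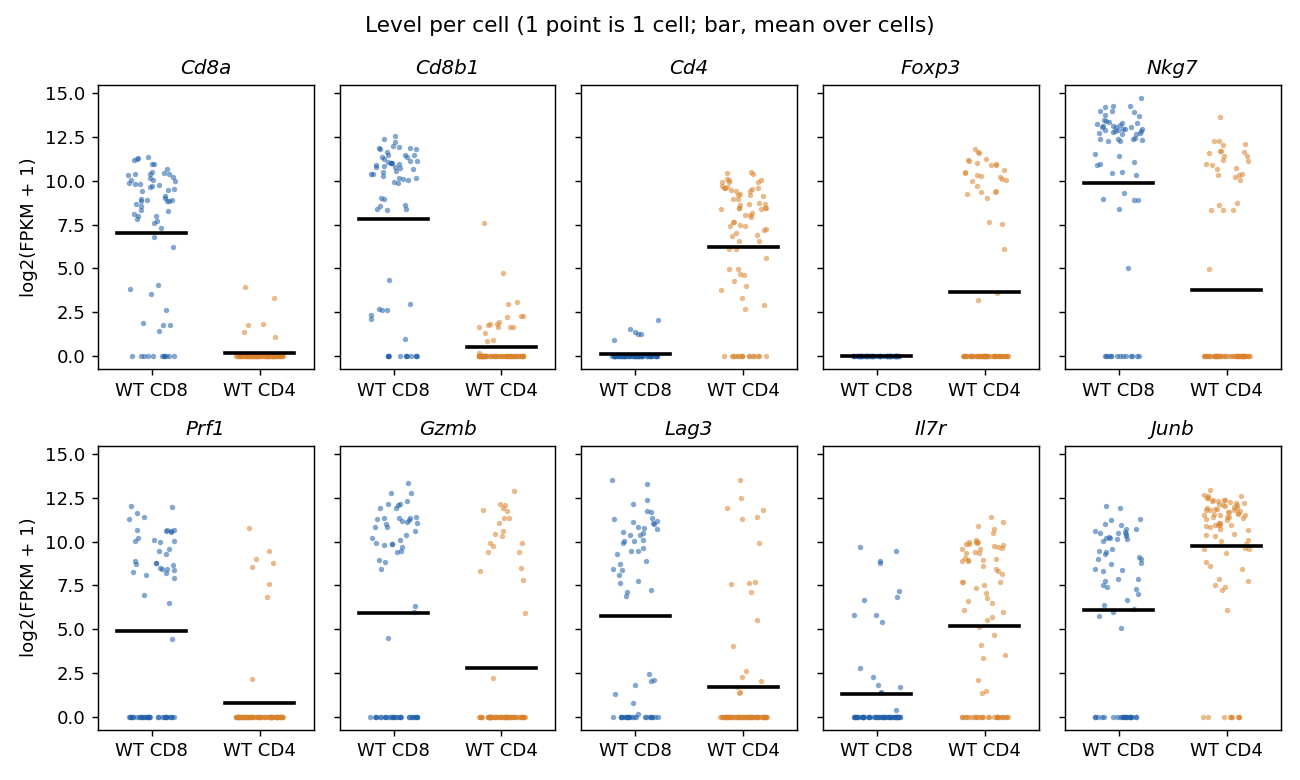
Level of 10 genes in each kept WT cell as log2(FPKM + 1), with CD8 cells (blue, 67) left of CD4 cells (orange, 79); each point is 1 cell and each black bar the mean over cells. Cd8a, Cd8b1, Nkg7, Prf1, Gzmb and Lag3 have the higher mean in CD8 cells, Cd4, Foxp3, Il7r and Junb in CD4 cells, and most genes hold a group of cells at 0 beside a group of high cells.

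Genes of the cytotoxic granule were higher in CD8 cells. Of 17 listed genes, 12 passed the filter, 11 of them were higher in CD8, against 76.7% of all genes, and 10 higher by at least 1, against 14.1%, with a median difference of 2.66 against 0.33 for all genes. Gzma, Gzmk and Lamp1 passed the filter through CD8 cells alone, so their direction is no support for these counts. Nkg7, a membrane protein of cytotoxic granules, ran from 0 to 27483 FPKM in WT CD8 cells, with a median of 5591 FPKM, and 0 to 12633 FPKM in WT CD4 cells, with a median of 0 FPKM. Its mean log2 level was 9.89 ± 5.15 in CD8 cells and 3.75 ± 5.19 in CD4 cells, a difference of 6.14. High CD4 cells overlapped the CD8 range, but they were the minority, since Nkg7 was above 0 in 54 of 67 CD8 cells (80.6%) and 28 of 79 CD4 cells (35.4%).

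Prf1 encodes perforin, which opens the target membrane to granzymes. It ran from 0 to 4159 FPKM in WT CD8 cells, with a median of 88 FPKM, and 0 to 1766 FPKM in WT CD4 cells, with a median of 0 FPKM, and was found in 35 of 67 CD8 cells (52.2%) and 8 of 79 CD4 cells (10.1%). Gzmk, a granzyme, ran up to 3182 FPKM in CD8 and 1109 FPKM in CD4 cells, with a median of 0 on both sides. It was found in 33 of 67 CD8 cells (49.3%, exact 95% interval 36.8% to 61.8%) and 1 of 79 CD4 cells (1.27%, 0.0320% to 6.85%), so that a single CD4 cell held it. Ctsw, a cysteine protease of cytotoxic cells, had medians of 1026 FPKM in CD8 cells and 0 FPKM in CD4 cells. The differences were 4.11 for Prf1, 4.63 for Gzmk and 4.43 for Ctsw, and in matched cells they were 3.0, 4.14 and 4.57.

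Gzmb, the granzyme that activates caspases in target cells, was also high in part of the CD4 cells. It ran from 0 to 10299.8 FPKM in WT CD8 cells, with a median of 454 FPKM, and 0 to 7686 FPKM in WT CD4 cells, with a median of 0 FPKM, and differed by 3.17, but by 1.07 in matched cells and by 1.01 in cells with Mki67 and Top2a at 0. Of the 22 CD4 cells with Gzmb, 19 also held Foxp3. Gzmb was thus found in 19 of 30 CD4 cells with Foxp3 and 3 of 49 CD4 cells with Foxp3 at 0, beside 38 of 67 CD8 cells. Its mean log2 level was 5.94 in CD8 cells, 6.67 in CD4 cells with Foxp3 and 0.39 in the other CD4 cells. Prf1 showed no such level there, with 1.20 in CD4 cells with Foxp3 and 0.55 in those without, against 4.91 in CD8 cells.

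Among the other granule genes, Cst7, a protease inhibitor of granules, differed by 2.97, Fasl, the death ligand, by 2.35 and Serpinb9, which inhibits granzyme B, by 1.5. Srgn, the proteoglycan that packs granule contents, was the exception at -1.10, found in 79.1% of CD8 and 83.5% of CD4 cells. Gzmc, Gzmd, Gzme and Gzmf, near-identical granzymes whose reads cannot be assigned with certainty, and Gzmm did not reach 10% of either side. Counting Gzmb, Gzmk, Prf1, Nkg7, Ctsw and Cst7 in each cell, at least 3 of the 6 were found in 47 of 67 CD8 cells (70.1%) and 14 of 79 CD4 cells (17.7%). In matched cells the shares were 69.8% and 20.9%.

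The 250 bases before the start sites of 4 granule genes higher in WT CD8 cells, Nkg7, Prf1, Gzmk and Gzmb, are shown because Runx factors, which bind TGTGGT, are known regulators of CD8 T cells. The 4 were chosen after their values were seen, and Gzmb is not among the 12 genes with the largest difference. The sequences are RefSeq's for GRCm38.p6, read 5′ to 3′ on the strand of the gene, with TGTGGT on either strand in capitals.
Nkg7, chr7:43436888-43437137, plus strand: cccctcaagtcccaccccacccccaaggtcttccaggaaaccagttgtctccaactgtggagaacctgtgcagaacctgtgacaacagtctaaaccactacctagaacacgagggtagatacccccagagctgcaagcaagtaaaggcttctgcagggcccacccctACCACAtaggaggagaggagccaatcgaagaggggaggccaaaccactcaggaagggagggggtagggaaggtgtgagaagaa
Prf1, chr10:61297586-61297835, plus strand: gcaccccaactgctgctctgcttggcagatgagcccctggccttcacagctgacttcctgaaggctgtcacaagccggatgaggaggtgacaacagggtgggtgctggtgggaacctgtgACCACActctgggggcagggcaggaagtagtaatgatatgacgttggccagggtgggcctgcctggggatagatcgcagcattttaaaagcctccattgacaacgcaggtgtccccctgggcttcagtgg
Gzmk, chr13:113180966-113181215, minus strand: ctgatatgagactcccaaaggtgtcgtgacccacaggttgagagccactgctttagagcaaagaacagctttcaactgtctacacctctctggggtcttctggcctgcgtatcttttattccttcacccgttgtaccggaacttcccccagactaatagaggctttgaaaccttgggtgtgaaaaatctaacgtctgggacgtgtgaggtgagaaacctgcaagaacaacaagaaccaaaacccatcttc
Gzmb, chr14:56262335-56262584, minus strand: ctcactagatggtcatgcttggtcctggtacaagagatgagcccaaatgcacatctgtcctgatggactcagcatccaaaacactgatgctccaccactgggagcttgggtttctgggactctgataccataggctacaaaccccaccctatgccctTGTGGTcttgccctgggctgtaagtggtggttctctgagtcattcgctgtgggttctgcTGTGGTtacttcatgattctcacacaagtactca
The match begins 83 bases before the start of Nkg7 and 130 before that of Prf1. These letters are not in the 250 bases of Gzmk, or in those of Cd8a, while Gzmb holds 2, at 93 and 34 bases before its start. Over windows of 300 bases, 250 before and 50 after the start, 5506 of 32851 RefSeq windows (16.8%) hold TGTGGT. Of the 12 genes with the largest positive difference, 7 had a window and 3 held it, Ly6c2, Nkg7 and Prf1. Of the 12 with the largest negative difference, 10 had a window and 1, Il7r, held it. These are matches of letters and not measured binding.

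Chemokines that draw T cells and myeloid cells were also higher in CD8 cells. Ccl5 ran from 0 to 122733 FPKM in WT CD8 cells, with a median of 5340.3 FPKM, and 0 to 14250.1 FPKM in WT CD4 cells, with a median of 0 FPKM. It was found in 55 of 67 CD8 cells (82.1%, exact 95% interval 70.8% to 90.4%) and 25 of 79 CD4 cells (31.6%, 21.6% to 43.1%), a difference of 7.17, and of 7.64 in matched cells. Ccl4 ran up to 58486 FPKM in CD8 and 9012 FPKM in CD4 cells, and was found in 35 of 67 CD8 cells (52.2%) and 4 of 79 CD4 cells (5.06%), a difference of 4.76. Ccl3 differed by 3.07. Of 10 listed chemokines these 3 and Ccl9 passed the 10% filter, and Ccl9 differed by 0.16 (found in 35.8% of CD8 and 34.2% of CD4 cells). Xcl1, which attracts cross-presenting dendritic cells, was found in 8.96% of CD8 cells and no CD4 cell.

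Most receptors of the NK type were higher in CD8 cells. Of 16 listed, 11 passed the filter and 10 were higher in CD8, against 76.7% of all genes, and 9 of them by at least 1, against 14.1%, with a median of 1.56 and of 1.77 in matched cells. Klrc1, Klrc2, Klre1, Cd160 and Crtam were at 0 in all CD4 cells, and Klrd1, Klrk1 and Cd244 were below 10% there. All of these passed the filter through CD8 cells alone, so their direction is no support for the count. Klrd1, which pairs with Klrc1 as an inhibitory receptor for a class I like ligand, was found in 33 of 67 CD8 cells (49.3%, exact 95% interval 36.8% to 61.8%) and 3 of 79 CD4 cells (3.80%, 0.790% to 10.7%). Klrc1 was found in 22 of 67 CD8 cells (32.8%), though its reads may be shared with its paralogs Klrc2 and Klrc3, and in 0 of 79 CD4 cells, which allows a share of up to 3.80%. Cd160, another receptor of cytotoxic cells, was found in 25 of 67 CD8 cells (37.3%) and in 0 of 79 CD4 cells, with the same limit. Klrk1, the activating receptor NKG2D, was found in 41.8% of CD8 and 7.59% of CD4 cells. Klrg1, a receptor of late effector cells, was the exception, with 20.9% of CD8 and 26.6% of CD4 cells and a difference of -0.92. The NK cell markers Ncr1, Klra4 and Klra8 were at 0 in all CD4 cells, and 9 CD8 cells held at least 1 NK cell marker; their part in these values was not tested.

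The other genes among the 12 with the largest positive difference were Ly6c2, Plek and Efhd2. Ly6c2, a surface protein of memory and effector CD8 cells, ran from 0 to 25372 FPKM in WT CD8 cells, with a median of 894 FPKM, and 0 to 12619.9 FPKM in WT CD4 cells, with a median of 0 FPKM, and its difference was 5.84. It has a close paralog in Ly6c1, so its reads are uncertain. Plek, a substrate of protein kinase C, differed by 4.33 and Efhd2, a calcium-binding protein, by 4.23. The next genes past the 12 were Lag3 at 4.04 and Cxcr6 at 3.88, against 4.11 for Prf1, the last of the 12.

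Of the 5 inhibitory receptors counted per cell, Pdcd1, Lag3, Havcr2 and Tigit were higher and Ctla4 lower over all WT CD8 cells, and Tigit was lower (-0.29) in matched cells. Pdcd1, which binds PD-L1 on tumour cells, ran from 0 to 4554 FPKM in WT CD8 cells, with a median of 602 FPKM, and 0 to 4667 FPKM in WT CD4 cells, with a median of 0 FPKM. Lag3, which binds class II molecules, ran from 0 to 11879 FPKM in WT CD8 cells, with a median of 198.7 FPKM, and 0 to 11925 FPKM in WT CD4 cells, with a median of 0 FPKM. Havcr2 ran from 0 to 2493 FPKM in WT CD8 cells, with a median of 8.12 FPKM, and 0 to 1606 FPKM in WT CD4 cells, with a median of 0 FPKM. In all 3 the ranges overlapped and the sides differed in how many cells held the RNA. Among cells above 0, mean log2 levels in CD8 and CD4 cells were 10.36 and 9.31 for Pdcd1 and 8.72 and 7.02 for Lag3. For Havcr2 they were 8.03 and 7.57. Pdcd1 was found in 41 of 67 CD8 cells (61.2%, exact 95% interval 48.5% to 72.9%) and 28 of 79 CD4 cells (35.4%, 25% to 47%), Lag3 in 44 of 67 CD8 cells (65.7%) and 19 of 79 CD4 cells (24.1%) and Havcr2 in 38 of 67 CD8 cells (56.7%) and 19 of 79 CD4 cells (24.1%).

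The differences were 3.04 for Pdcd1, 4.04 for Lag3 and 2.73 for Havcr2. In matched cells they were 1.81, 3.0 and 1.22, and without Mki67 or Top2a 0.67, 2.55 and 1.39. Tigit, which competes with the activating receptor Cd226 for its ligands, ran from 0 to 7309 FPKM in WT CD8 cells, with a median of 186.6 FPKM, and 0 to 16389 FPKM in WT CD4 cells, with a median of 17.8 FPKM. Its difference of 1.52 did not keep its sign: it was -0.29 in matched cells, -0.19 without Mki67 or Top2a and -0.05 as the log of mean FPKM, where the mean FPKM was 1234 in CD8 and 1273 in CD4 cells. Ctla4, which takes the ligands of Cd28, was lower in CD8, with a difference of -1.51 (-3.14 in matched cells), and ran from 0 to 4200.2 FPKM in WT CD8 cells, with a median of 49 FPKM, and 0 to 6327 FPKM in WT CD4 cells, with a median of 320.2 FPKM.

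Of the 17 listed inhibitory receptors and ectoenzymes, 16 passed the filter and 12 were higher in CD8, where 76.7% of all genes were. Of these 9 were higher by at least 1, against 14.1% of all genes, and the median was 1.42. Cd160, Klrc1, Cd244 and Cd200 passed the filter through CD8 cells alone, and Nt5e through CD4 cells alone. The direction of these genes is no support for the counts. The median was -0.13 between the population libraries, 0.45 in matched cells, 0.10 without cells holding Mki67 or Top2a, and 1.78 without cells lacking B2m or the Cd3 genes. Cd96, another receptor of the Cd226 family, differed by 2.47 and Entpd1 (CD39), which breaks down ATP, by 1.63. Nt5e (CD73), which turns the product of that step into adenosine, was found in 5.97% of CD8 and 29.1% of CD4 cells and differed by -1.85. CD39 and CD73 RNA thus leaned to opposite sides in WT single cells. Between the population libraries Entpd1 differed by 0.04 and Nt5e by -3.26, and in the cells labelled KO by -0.69 and -0.60.

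The receptors were then counted together in each cell. Of Pdcd1, Lag3, Havcr2, Tigit and Ctla4, at least 3 were found in 42 of 67 CD8 cells (62.7%, exact 95% interval 50% to 74.2%) and 28 of 79 CD4 cells (35.4%, 25% to 47%). All 5 were found in 30 CD8 cells (44.8%) and 10 CD4 cells (12.7%). All 5 was the most frequent count in CD8 cells, while 1 and 2 were the most frequent in CD4 cells, with 19 cells each. In matched cells the shares with all 5 were 32.6% of CD8 and 20.9% of CD4 cells, and after thinning 54.7% and 12.9%. Without cells lacking B2m or the Cd3 genes they were 53.6% and 13.9%.

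Cells with all 5 receptors held more genes and more often held division genes. The 30 CD8 cells with all 5 held a median of 4009.5 genes and 21 of them held Mki67 or Top2a, while the 37 other CD8 cells held a median of 2473 genes and 10 of them held either. Among CD8 cells with Mki67 or Top2a, 21 of 31 held all 5, and among those without, 9 of 36 (25%), against 6 of 61 CD4 cells without (9.84%). At least 3 of the 5 were found in 41.7% of CD8 and 34.4% of CD4 cells without Mki67 or Top2a. On the CD4 side the 10 cells with all 5 held a median of 3286 genes, 4 of them with Mki67 or Top2a, and the 69 others a median of 2220 genes. Of the 10, 9 held Foxp3. The part of depth and division in the joint count was not tested beyond these subsets.

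**Figure D2:**
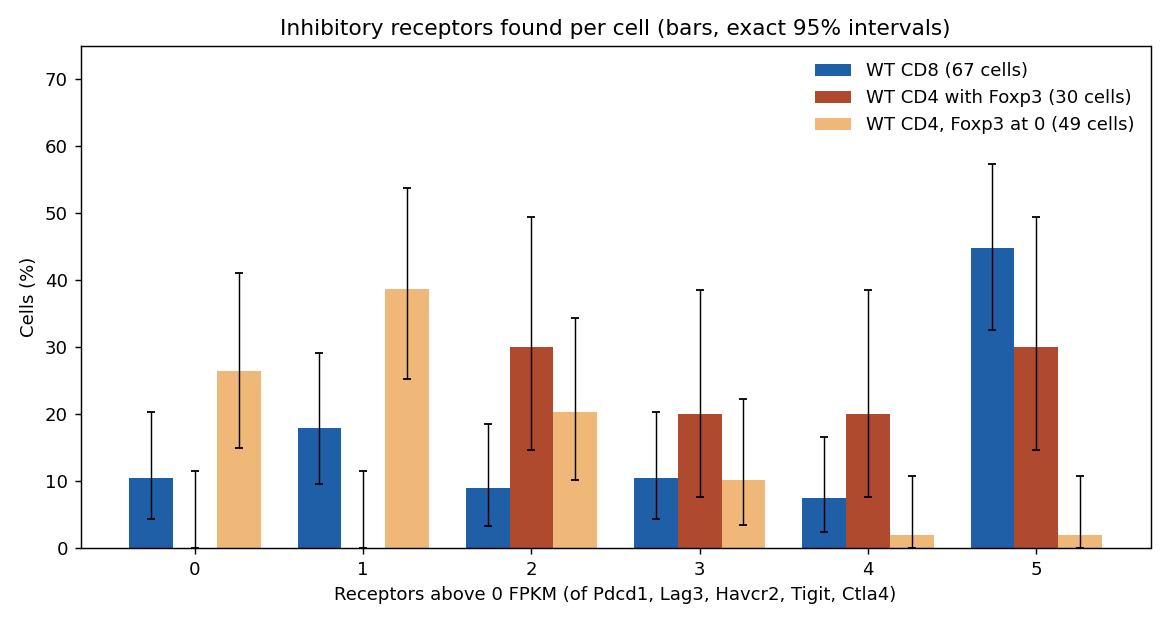
Share of cells (%) by the number of 5 inhibitory receptors above 0 FPKM, for WT CD8 cells (blue), WT CD4 cells with Foxp3 (dark red) and WT CD4 cells with Foxp3 at 0 (light orange); lines are exact 95% intervals for counting error. All 5 were found in 44.8% of CD8 cells, 30% of CD4 cells with Foxp3 and 2.04% of the other CD4 cells.

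**Figure D3:**
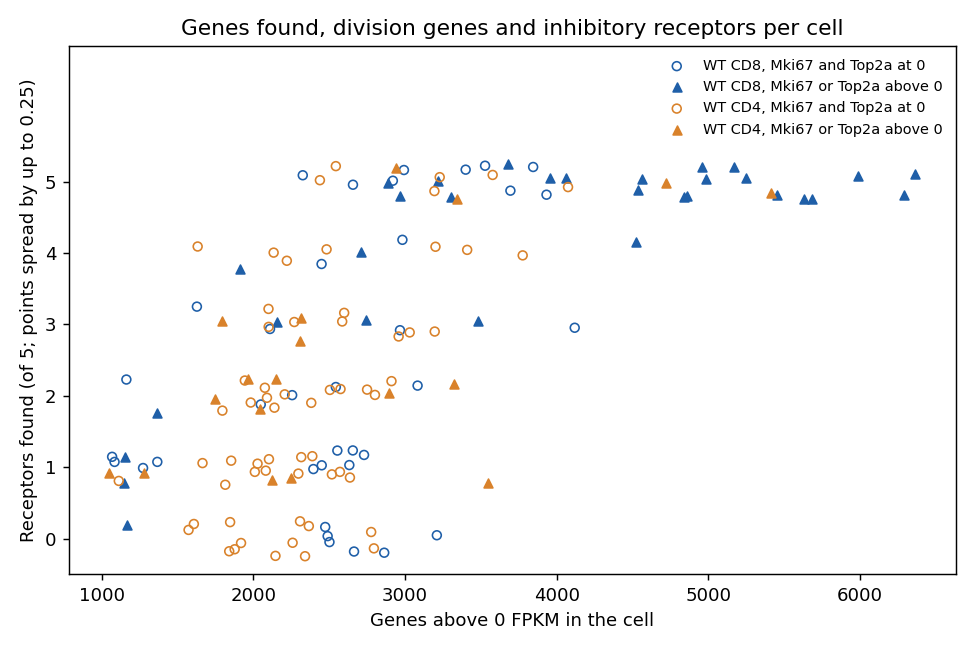
Number of the 5 receptors found in each WT cell (y axis, points spread by up to 0.25) against the genes above 0 FPKM in that cell (x axis), with CD8 cells in blue and CD4 cells in orange; filled triangles held Mki67 or Top2a and open circles held neither. The 6 cells with the most genes are CD8 cells with Mki67 or Top2a and all 5 receptors, and the CD8 cells with all 5 held a median of 4009.5 genes.

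Of transcription factors linked to effector and exhausted cells, 13 of the 15 that passed the filter were higher in WT CD8 cells, against 76.7% of all genes, and 6 by at least 1, against 14.1%. Nr4a2, Eomes, Zeb2 and Egr2 passed the filter through CD8 cells alone, so their direction is no support for these counts. The median was 0.77 and 0.78 in matched cells, but -0.17 in the cells labelled KO and -0.34 between the population libraries. In the cells labelled KO and between the population libraries alike, 5 genes were higher and 10 lower, where 59.2% and 46.5% of all genes were higher. Nr4a2, a nuclear receptor induced by antigen, was found in 33 of 67 CD8 cells (49.3%, exact 95% interval 36.8% to 61.8%) and 3 of 79 CD4 cells (3.80%, 0.790% to 10.7%), a difference of 3.12. Eomes, a T-box factor of memory and exhausted CD8 cells, was found in 43.3% of CD8 and 1.27% of CD4 cells and differed by 2.25. Tox, a factor of chronic antigen exposure, was found in 56.7% of CD8 and 25.3% of CD4 cells and differed by 2.37. Ikzf3 differed by 2.91 and Bhlhe40 by 2.39 in single cells, but by -0.60 and -0.06 between the population libraries. Nr4a1, a close relative of Nr4a2, went the other way at -0.89, and Prdm1, a repressor of effector cells, was at -0.19.

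All 35 cell division genes were higher in CD8 cells, against 76.7% of all genes, and 33 of them by at least 1, against 14.1%, with a median of 1.61. Many of the 35 passed the 10% filter through CD8 cells alone, which favours that direction. Among them, Cdca3, Kif20a and Bub1b were found in 0% of CD4 cells and Stmn1 in 7.59%. Mki67 ran from 0 to 445 FPKM in WT CD8 cells, with a median of 0 FPKM, and 0 to 152.5 FPKM in WT CD4 cells, with a median of 0 FPKM, and was found in 26 of 67 CD8 cells (38.8%, exact 95% interval 27.1% to 51.5%) and 10 of 79 CD4 cells (12.7%, 6.24% to 22%). Mki67 or Top2a was found in 31 of 67 CD8 cells (46.3%) and 18 of 79 CD4 cells (22.8%). Stmn1, a microtubule regulator of dividing cells, differed by 2.50, Mcm6, a part of the replicative helicase, by 2.34, and Rrm1, a subunit of ribonucleotide reductase, by 2.07. In matched cells the median was 0.25, Stmn1 0.55, Mcm6 0.84 and Rrm1 -0.26, and Mki67 or Top2a was found in 27.9% of CD8 and 23.3% of CD4 cells. After thinning to 100000 reads the median was 2.03, with Mki67 or Top2a in 45.3% and 20%. Between the population libraries all 35 were higher, against 46.5% of all genes, with a median of 2.48. In the cells labelled KO the median was 0.18, and Mki67 or Top2a was found in 20.3% of CD8 and 17.9% of CD4 cells.

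The CD4 side held cells with the RNA of Foxp3, and the CD8 side did not. On chromosome X from 7573644 to 7595245 of GRCm38, Foxp3 was found in 0 of 67 CD8 cells, which allows a share of up to 4.48%, and in 30 of 79 CD4 cells (38%, exact 95% interval 27.3% to 49.6%), where it reached 3579.6 FPKM. All 18 regulatory T cell genes that passed the filter, of 20 listed, were lower in CD8 cells, against 23.3% of all genes. Of these 13 were lower by at least 1, against 2.08% of all genes, with a median of -1.37. Members that passed the filter through CD4 cells alone, Foxp3 among them, give no support to these counts. Tnfrsf4 (OX40), a costimulatory receptor, ran from 0 to 2827 FPKM in WT CD8 cells, with a median of 0 FPKM, and 0 to 10812 FPKM in WT CD4 cells, with a median of 0 FPKM. Its difference was -3.20, and the median was 0 on both sides. Ccr8, a chemokine receptor of tumour regulatory T cells, was found in 4 of 67 CD8 cells (5.97%) and 25 of 79 CD4 cells (31.6%). Capg, an actin-capping protein, ran from 0 to 3092 FPKM in WT CD8 cells, with a median of 0 FPKM, and 0 to 7189 FPKM in WT CD4 cells, with a median of 805 FPKM, and differed by -3.72. Il2ra, the high-affinity chain of the IL-2 receptor, differed by -1.49.

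Splitting the CD4 cells by Foxp3 showed which differences lay with those 30 cells. The split itself used Foxp3, and its values are a description. Against the 49 CD4 cells with Foxp3 at 0, the regulatory T cell median was -0.25, and against the 30 with Foxp3 it was -3.50. For all detected genes these medians were 0.47 and 0.15. Tnfrsf4 had a mean log2 level of 1.44 in CD8 cells, 9.0 in CD4 cells with Foxp3 and 1.96 in the others. Ctla4 was found in all 30 CD4 cells with Foxp3. Its mean was 4.62 in CD8 cells, 10.32 in CD4 cells with Foxp3 and 3.55 in the others, so that CD8 cells stood between the 2 kinds of CD4 cell.

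The inhibitory receptors differed between the 2 kinds of CD4 cell too. Pdcd1 had a mean log2 level of 6.34 in CD8 cells, 5.79 in CD4 cells with Foxp3 and 1.78 in those without. Tigit was at 6.99, 9.19 and 3.18 in the same 3 sets of cells. At least 3 of the 5 receptors were found in 42 of 67 CD8 cells, 21 of 30 CD4 cells with Foxp3 (70%) and 7 of 49 without (14.3%). The CD4 cells with Foxp3 also held more genes, with a median of 2822 against 2119 in those without, and the part of this in the receptor counts was not tested. They made up 48.8% of the CD4 cells in the matched set.

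Il7r and Tcf7, genes of naive and memory T cells, were lower in WT CD8 cells. Il7r, the IL-7 receptor chain that supports long-lived T cells, ran from 0 to 824 FPKM in WT CD8 cells, with a median of 0 FPKM, and 0 to 2715 FPKM in WT CD4 cells, with a median of 87.8 FPKM. It was found in 17 of 67 CD8 cells (25.4%, exact 95% interval 15.5% to 37.5%) and 52 of 79 CD4 cells (65.8%, 54.3% to 76.1%), a difference of -3.92, and of -3.33 in matched cells. Its mean in CD4 cells was 5.39 with Foxp3 and 5.10 without. Tcf7 (TCF-1), a factor of naive, memory and stem-like T cells, was found in 16 of 67 CD8 cells (23.9%, exact 95% interval 14.3% to 35.9%) and 32 of 79 CD4 cells (40.5%, 29.6% to 52.1%), a difference of -1.54 that was -0.48 in matched cells. On the CD4 side it lay with the cells without Foxp3, at a mean of 0.58 with Foxp3 and 4.89 without, against 1.71 in CD8 cells. Tcf7 and Pdcd1 were found together in 3 CD8 and 4 CD4 cells.

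Ccr7, the receptor for entry into lymph nodes, was found in 4 of 67 CD8 cells (5.97%, exact 95% interval 1.65% to 14.6%) and 16 of 79 CD4 cells (20.3%, 12% to 30.8%), and differed by -1.41. Emb differed by -2.13 and S1pr1, which lets T cells leave tissue, by -1.73. Of 14 listed naive and memory genes, which do not include Ccr7, 13 passed the filter. Of these 10 were lower in CD8, against 23.3% of all genes, and 5 of those by at least 1, against 2.08%, with a median of -0.44. Klf2 passed the filter through CD4 cells alone, so its direction is no support for these counts. The 3 higher genes were Ly6c2 at 5.84, the largest value of the list either way, Bcl2, a survival factor, at 1.63, and Bach2 at 0.22.

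Immediate early genes, which switch on within minutes of a signal without new protein, were lower in CD8 cells. Of 17 that passed the filter 13 were lower, against 23.3% of all genes, and 9 by at least 1, against 2.08%, with a median of -1.40, of -1.86 in matched cells and of -0.70 without cells lacking B2m or the Cd3 genes. Members that passed the filter through CD4 cells alone, Jun among them, give no support to these counts. Junb, a subunit of AP-1, ran from 0 to 4281 FPKM in WT CD8 cells, with a median of 231.02 FPKM, and 0 to 8070.2 FPKM in WT CD4 cells, with a median of 2485 FPKM. Its mean log2 level was 6.12 ± 4.55 in CD8 cells and 9.73 ± 3.79 in CD4 cells, a difference of -3.60. Both sides held cells at 0 and high cells. Ppp1r15a, a phosphatase subunit of the stress response, ran from 0 to 1430.2 FPKM in WT CD8 cells, with a median of 0 FPKM, and 0 to 3407 FPKM in WT CD4 cells, with a median of 251.9 FPKM. Zfp36, which marks cytokine messages for decay, ran from 0 to 1278 FPKM in WT CD8 cells, with a median of 0 FPKM, and 0 to 3899.5 FPKM in WT CD4 cells, with a median of 76.5 FPKM. In each of the 3, the CD8 median lay below the CD4 median and the highest CD8 cell below the highest CD4 cell. Ppp1r15a differed by -3.06 and Zfp36 by -2.82.

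Fos differed by -2.59, Nfkbia, the inhibitor of NF-kB, by -2.51, and Jun by -1.52. Dusp2, a phosphatase of MAP kinases, went the other way at 2.91, found in 37 of 67 CD8 cells (55.2%) and 17 of 79 CD4 cells (21.5%). These genes also respond to the handling of tissue, and handling times are not in the labels, so its part was not tested. Ubb, a ubiquitin gene, was lower as well, with a difference of -1.74, but of -0.69 without cells lacking B2m or the Cd3 genes.

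The bases before the start sites of Ppp1r15a and Zfp36 are shown because these are immediate early genes, and each was the only window among the 12 lower genes with the element marked, one that known signal-induced genes carry. Capitals mark the cyclic AMP response element TGACGTCA in Ppp1r15a, which begins 12 bases before the start, and the core of the serum response element in Zfp36, which begins 58 bases before it.
Ppp1r15a, chr7:45526269-45526518, minus strand: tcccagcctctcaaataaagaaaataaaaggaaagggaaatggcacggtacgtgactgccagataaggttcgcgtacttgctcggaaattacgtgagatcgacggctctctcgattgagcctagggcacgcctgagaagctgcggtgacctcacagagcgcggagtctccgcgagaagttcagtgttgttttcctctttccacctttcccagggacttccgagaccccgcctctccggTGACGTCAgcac
Zfp36, chr7:28379229-28379478, minus strand: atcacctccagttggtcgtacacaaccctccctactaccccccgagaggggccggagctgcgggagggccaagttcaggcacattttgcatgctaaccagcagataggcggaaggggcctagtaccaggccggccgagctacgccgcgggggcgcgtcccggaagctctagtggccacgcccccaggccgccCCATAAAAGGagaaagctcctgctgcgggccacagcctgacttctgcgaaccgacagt
Of 32851 RefSeq windows, 588 (1.79%) hold TGACGTCA and 535 (1.63%) hold a serum response element core. None of the 7 windows of the higher genes held either element, and no window of the 12 lower genes, of which 10 had one, held an NF-kB site, against 4.51% of all windows. Among other immediate early genes, the serum response element core is not in the 250 bases before Junb and Fos, and an NF-kB site begins 29 bases before the start of Nfkbia. This search is a description of letters in these windows.

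Costimulatory receptors were lower in CD8 cells for 9 of the 12 that passed the filter, against 23.3% of all genes, and by at least 1 for 4, against 2.08%, with a median of -0.65. Tnfrsf25 passed the filter through CD4 cells alone, so its direction is no support for these counts. Icos, a relative of Cd28, ran from 0 to 2361 FPKM in WT CD8 cells, with a median of 37.1 FPKM, and 0 to 3714 FPKM in WT CD4 cells, with a median of 389.5 FPKM, and differed by -2.98. It was lower in CD8 than in both kinds of CD4 cell, with means of 3.97 in CD8 cells, 8.64 in CD4 cells with Foxp3 and 5.91 in those without. Tnfrsf18 (GITR) differed by -2.26. Cd27 and Cd226 were higher in CD8, at 1.47 and 1.56.

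Among factors of helper cells, Gata3, which directs type 2 helper cells, was found in 31 of 67 CD8 cells (46.3%) and 52 of 79 CD4 cells (65.8%), and differed by -2.31. Rora differed by -2.36 and Maf by -1.0. Tbx21 (T-bet), which directs type 1 cells and cytotoxic CD8 cells, was higher in CD8 at 1.58, found in 31 of 67 CD8 cells (46.3%) and 19 of 79 CD4 cells (24.1%), but differed by -0.10 between the population libraries. Of 10 listed factors 8 passed the filter, 4 each way, where 76.7% of all genes were higher and 23.3% lower.

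Few cytokine genes were found. Of 21 listed, 7 passed the filter. Ifng, the main cytokine of type 1 responses, was found in 19 of 67 CD8 cells (28.4%, exact 95% interval 18% to 40.7%) and 9 of 79 CD4 cells (11.4%, 5.34% to 20.5%), with values of up to 9102 FPKM in CD8 and 2122 FPKM in CD4 cells, and differed by 1.60. Il10, which restrains inflammation, was found in 13 of 67 CD8 cells (19.4%) and 10 of 79 CD4 cells (12.7%). Areg, a growth factor made by regulatory T cells in tissue repair, was found in 2 of 67 CD8 cells (2.99%) and 15 of 79 CD4 cells (19%); 43.3% of the CD4 cells with Foxp3 held it and 4.08% of the others. Ltb, a ligand for lymphoid tissue, differed by -2.13.

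Chemokine receptors split by side. Cxcr6, which marks resident T cells, was found in 46 of 67 CD8 cells (68.7%) and 24 of 79 CD4 cells (30.4%), a difference of 3.88. Cx3cr1 differed by 1.48, Ccr4 by -1.41 and Ccr8 by -2.44. Of the integrins, Itgb7, which pairs with Itga4 or Itgae, ran from 0 to 4807 FPKM in WT CD8 cells, with a median of 0 FPKM, and 0 to 4443 FPKM in WT CD4 cells, with a median of 745 FPKM, a difference of -4.42. Itga4 itself differed by 3.08, and was above 10 FPKM in 82.1% of CD8 and 31.6% of CD4 cells. Itgb2, the shared chain of the leukocyte integrins, differed by 1.70 and Itgae by -1.03.

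Cytokine receptors had a median of -0.16, with 9 higher and 12 lower in CD8, where 76.7% of all genes were higher and 23.3% lower. Both chains of the IL-10 receptor were higher, Il10ra by 2.06 (1.03 in matched cells) and Il10rb by 1.67. Il27ra, the receptor chain the study is about, ran from 0 to 331.4 FPKM in WT CD8 cells, with a median of 0 FPKM, and 0 to 604 FPKM in WT CD4 cells, with a median of 0 FPKM, was found in 26 of 67 CD8 cells (38.8%) and 38 of 79 CD4 cells (48.1%), and differed by -1.45. The 14 detected genes linked to IL-27 signalling had a median of -0.13.

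The remaining lists showed small or unstable medians. Interferon-stimulated genes were lower in CD8 for 20 of 29 detected, against 23.3% of all genes, with a median of -0.25. Igtp, a GTPase induced by interferon-gamma, was the clearest, with a range of 0 to 1220.5 FPKM in WT CD8 cells, with a median of 0 FPKM, and 0 to 5584 FPKM in WT CD4 cells, with a median of 49.9 FPKM, and a difference of -2.84. Tap1, a peptide transporter for class I, was at 1.42 in single cells and -0.39 between the population libraries. Glycolysis genes had a median of 0.32, but of -0.46 in matched cells. Against the CD4 cells with Foxp3 this median was -1.49, with 12 of 14 genes lower in CD8, and against the CD4 cells without Foxp3 it was 1.37, with 14 of 14 higher. Over all detected genes the median was 0.15 against the CD4 cells with Foxp3 and 0.47 against those without. The CD4 cells with Foxp3 also held more reads, with a median of 526091 against 252459 in those without. The part of depth in this split was not tested. T cell receptor signalling genes had a median of 0.30, with Themis at 2.38 and Cd5, a brake on T cell receptor signals, at -1.68. Housekeeping genes had a median of 0.01, but of -0.74 against the CD4 cells with Foxp3 and of 0.39 against those without. Over the single-cell settings tried, several of these medians took both signs: from -0.85 to 0.04 for interferon-stimulated genes, -0.41 to 0.90 for T cell receptor signalling, -0.39 to 0.36 for cytokine receptors, -0.41 to 0.51 for IL-27-linked genes and -0.95 to 0.11 for helper factors. The glycolysis median ran from -0.51 to 1.37 and the housekeeping median from -0.79 to 1.16.

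**Figure D4:**
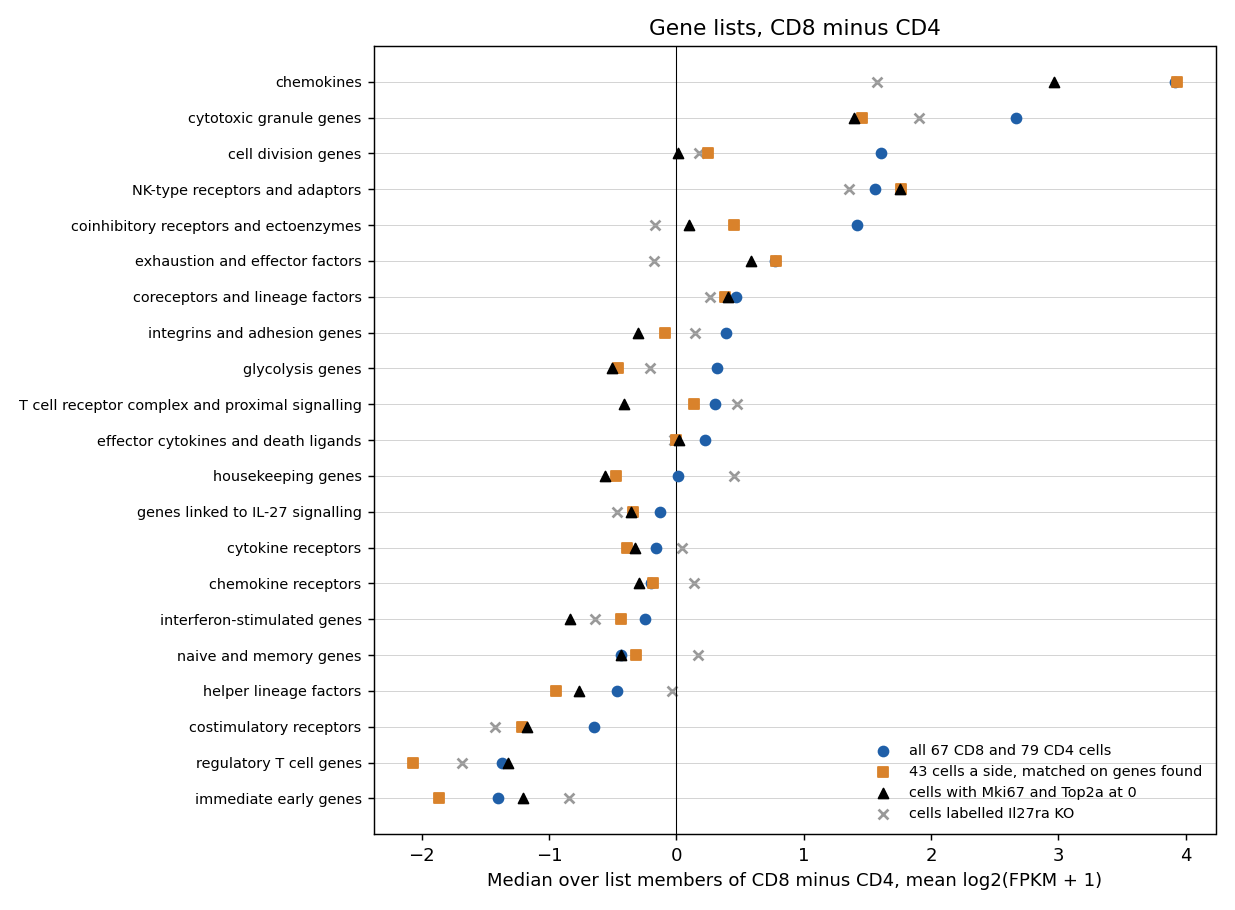
Median CD8 minus CD4 difference of mean log2(FPKM + 1) over the detected members of each of 21 gene lists, in all WT cells (blue circles), in 43 WT cells a side matched on genes found (orange squares), in WT cells with Mki67 and Top2a at 0 (black triangles) and in the cells labelled Il27ra KO (grey crosses). The cytotoxic, chemokine and NK-type lists lie above 1 and the regulatory T cell list below -1 in all 4 sets, while the coinhibitory and cell division medians lie between -0.17 and 0.45 in the other 3 sets (for the division list, leaving out Mki67 and Top2a selects on its own members), against 1.42 and 1.61 in all WT cells.

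Ass1, an enzyme of arginine synthesis, was the remaining gene among the 12 with the largest negative difference, at -2.92, found in 6 of 67 CD8 cells (8.96%) and 38 of 79 CD4 cells (48.1%). Gm5424, a transcribed pseudogene of the same enzyme, differed by -4.11, so reads may be shared between the pair and both values are uncertain. Past the 12 lower genes, which ended with Zfp36 at -2.82, came Sepp1 at -2.72 and Cd81 at -2.64.

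The same contrast in the cells labelled Il27ra KO, where both titles hold p2, shares no cell with the WT contrast. Of the 1265 genes higher by at least 1 in WT, 947 (74.9%) were also above 0 there, against 59.2% of all genes, and 20.2% were higher by at least 1, against 7.7% of genes detected in KO. Of the genes lower in WT, 79% were below 0, against 40.8% of all genes, and 77 (41.4%) were lower by at least 1, against 2.79%. Of the 24 genes named by size, 23 had the same sign in both genotypes, the exception being Il7r. Among granule, chemokine and NK-type genes, Nkg7 was 6.14 in WT and 7.24 in KO, Ccl5 7.17 and 6.63, Klrd1 4.14 and 5.65, and Prf1 4.11 and 3.27. Foxp3 was -3.66 in WT and -4.25 in KO, and Icos -2.98 in both.

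Lag3, Pdcd1, Havcr2 and Gzmb were below 0 in KO. Of the 16 genes of the coinhibitory list 7 were above 0 there, against 59.2% of all genes, with Klrc1 among the 7 at 4.25. Lag3 was 4.04 in WT and -0.15 in KO, Pdcd1 3.04 and -0.18, Havcr2 2.73 and -0.47, and Gzmb 3.17 and -0.60. The list median was 1.42 in WT and -0.17 in KO. At least 3 of the 5 receptors were found in 42 of 67 WT CD8 and 28 of 79 WT CD4 cells, and in 20 of 74 CD8 cells (27%) and 28 of 78 CD4 cells (35.9%) labelled KO. Il7r was -3.92 in WT and 0.04 in KO. It was found in 25.4% of WT CD8 cells and 65.8% of WT CD4 cells, and under the KO label in 73% of CD8 and 64.1% of CD4 cells. With 1 sample per genotype and side, the difference between the genotypes was not tested.

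The WT population libraries, 1 a side, differed in the same direction as the single cells for all 24 genes named by size. Their titles hold the same p2 and cat for CD8, and p3 and dog for CD4, so they share the limit those labels set. The 24 include Cd8a, Cd8b1 and Cd4, the genes of the sorted labels. The differences were 9.54 for Cd8a, 5.37 for Gzmk, 3.81 for Prf1, -9.58 for Cd4, -7.63 for Foxp3 and -3.57 for Il7r. Over all detected genes 1565 (17.5%) were higher and 1816 (20.3%) lower by at least 1 in the CD8 population. Of the 1265 genes higher in single CD8 cells 74.4% were above 0 there, against 46.5% of all genes, and of the lower genes 96.2% were below 0, against 52.1%. In such libraries fewer cells of a type and less RNA per cell cannot be told apart, and the CD8 population held melanoma markers at a median log2 level of 11.07, against 3.78 in the CD4 population. Macrophage markers had a median of 0.47 in the CD8 and 4.81 in the CD4 population, and class II genes 5.52 and 10.94. The part of these markers in the population values was not tested.

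**Figure D5:**
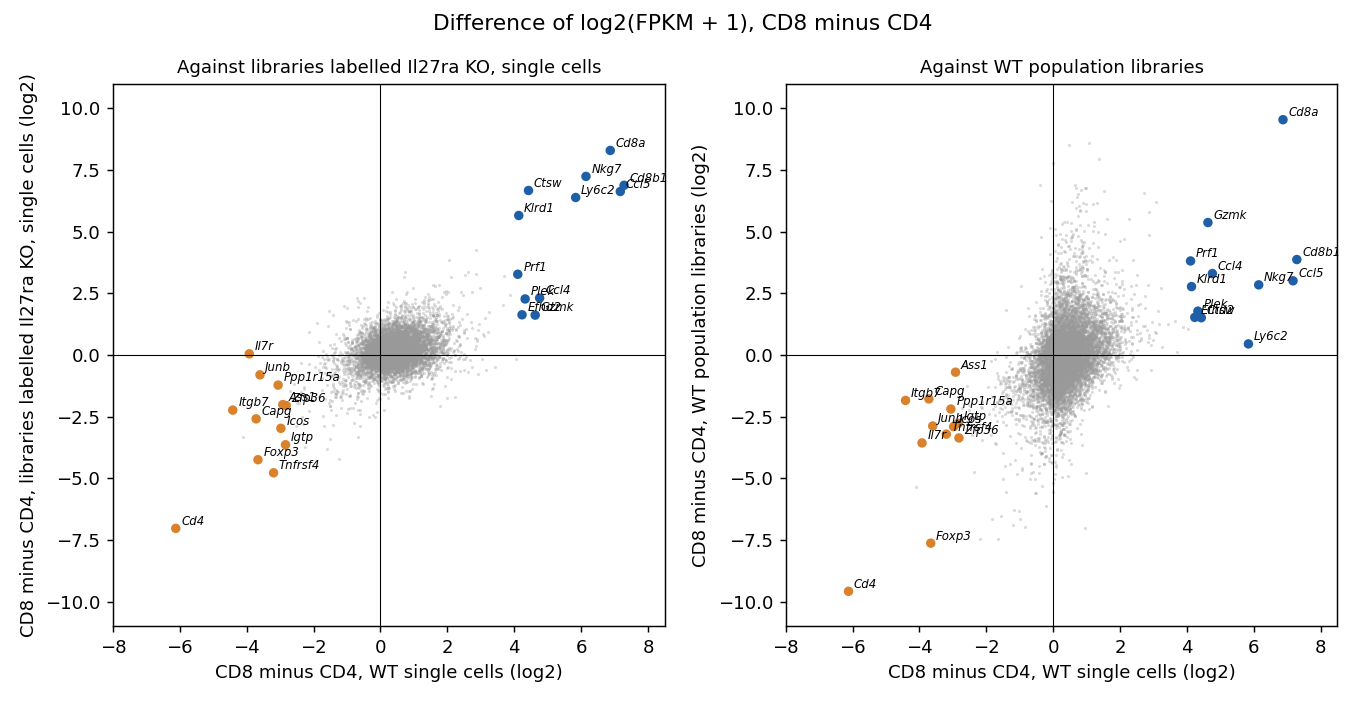
Difference of log2(FPKM + 1), CD8 minus CD4, of WT single cells (x axis) against that of cells labelled Il27ra KO (left panel) and of the WT population libraries (right panel); each point is a detected gene, with the 12 largest positive differences in blue and the 12 largest negative in orange. Il7r lies near 0 in the left panel (0.04), and all 24 genes lie on the same side of 0 in the right panel.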

How the data were processed

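Single T cells and 4 population libraries were sequenced with the Smart-seq2 protocol, per the labels' protocols. The values are FPKM scaled across libraries with TMM factors by the authors, as deposited, and the submitters' processing notes name Bowtie, RSEM and mm10. Which annotation they used is not given in the sources used at hand. FPKM hides depth and RSEM shares reads between similar transcripts, so near-identical genes are uncertain. No molecular identifiers are described.

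Groups came from the titles, and all columns of the table were mapped. Cells with 1000 or more genes above 0 FPKM were kept. Cells were in separate wells and no doublet caller was run. Levels were log2(FPKM + 1), with a pseudocount of 1, and differences were means over CD8 cells minus means over CD4 cells, for genes above 0 in 10% or more of cells on one or both sides. A difference of at least 1 was counted. With 1 sample a side no test was made, and intervals on shares are exact Clopper-Pearson intervals at 95%. A share of 0 allows up to 3 cells of the total.

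Reads per cell were estimated from the steps of low FPKM values with GENCODE M21 lengths: in the median cell 70.4% of the low values came out whole within 0.1 of a read. This share is too low for a count test. Thinning drew 100000 reads a cell, and matching drew 43 cells a side in bins of 500 genes above 0. The scripts were tested on simulated data.

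The cells, the 21 gene lists and the 14 marker lists were chosen with earlier results of these data known. In the marker lists 2 symbols had no match. The text names the 12 genes with the largest difference each way among those above 0 in 20% or more of cells on one or both sides and with a share that differs the same way, leaving out receptor and immunoglobulin segments, predicted, RIKEN and small RNA genes and mitochondrial genes. It also names, from each list, the 3 genes that differed most and a fixed set of known genes, 71 genes in all. Any other gene was chosen after its values were seen. Promoter windows are RefSeq's for GRCm38.p6, the assembly that mm10 names. Gene coordinates are those of GENCODE M21. Alternatives were other pseudocounts, minimums, filters and scalings, and subsets of the cells. Counting receptors per cell after thinning, without cells with Mki67 or Top2a, and without cells lacking B2m or the Cd3 genes was added after seeing the data. Python 3.11.15, numpy 2.4.6, pandas 2.3.3, scipy 1.17.1 and matplotlib 3.10.9 were used.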

Additional observations from a re-analysis of the deposited data

Results flagged for a closer look

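The CD8 minus CD4 difference of 3 named genes lay past 1 in WT cells and past 1 on the opposite side in the cells labelled Il27ra KO. It was 1.52 in WT and -1.68 in KO for Tigit, -1.41 in WT and 1.62 in KO for Ccr7, and -1.54 in WT and 1.76 in KO for Tcf7. In WT, Tigit was found in 82.1% of CD8 and 64.6% of CD4 cells, and under the KO label in 54.1% of CD8 and 67.9% of CD4 cells. Tcf7 was found in 23.9% of CD8 and 40.5% of CD4 cells in WT, and under the KO label in 55.4% of CD8 and 29.5% of CD4 cells. Ccr7 was found in 5.97% of CD8 and 20.3% of CD4 cells in WT, and under the KO label in 32.4% of CD8 and 15.4% of CD4 cells. These differences between the genotypes were not tested, since each genotype and cell type is 1 sample, and the WT CD4 titles differ from the other groups in holding p3.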

How the results depend on the processing

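The share of detected genes higher by at least 1 in CD8 was 14.1%, and it became 30.9% with a pseudocount of 0.1, 3.29% with 10, 9.20% with a minimum of 500 genes a cell, 3.88% with none, 4.74% in matched cells, 28.3% after thinning, 24.5% without cells lacking B2m or the Cd3 genes, 22.9% without CD4 cells holding Foxp3 and 5.08% without cells holding Mki67 or Top2a. The share lower by at least 1 was 2.08%, and became 3.44% (pseudocount 0.1), 0.792% (pseudocount 10), 3.75% (no minimum), 11.3% (log of mean FPKM), 8.12% (matched), 1.38% (no CD4 cells with Foxp3), 6.04% (no cells with Mki67 or Top2a) and 20.3% (population libraries). The genes detected differ between these settings. The median gene moved to -0.00561 in matched cells and -0.0572 between population libraries. At least 3 of 5 receptors were found in 41.7% of WT CD8 and 34.4% of WT CD4 cells without Mki67 or Top2a, a setting added after seeing the data. The difference of Tigit changed sign as the log of mean FPKM (-0.0451), in matched cells (-0.29), without cells holding Mki67 or Top2a (-0.19) and between population libraries (-0.30). Pfkp, a glycolytic enzyme, was -0.0492 as the log of mean FPKM against 1.67, and Rrm1 -0.26 in matched cells. Without CD4 cells holding Foxp3, Ctla4 was 1.06 and Slc16a3, a lactate transporter, 0.30 against -1.05. Between population libraries Tbx21 was -0.10, Ikzf3 -0.60, Bhlhe40 -0.0635, Tap1 -0.39 and the coinhibitory median -0.13. The causes were not tested. Of the differences of named genes recomputed, 1102 kept their sign and stayed on their side of 1, and 86 kept their sign but fell below 1 in size. A further 12, at least 1 in size over all WT cells, changed sign. Of those below 1 in size over all WT cells, 1 changed sign and 1 rose to at least 1. No paired analysis was possible because the numbers in the titles are library numbers and no test was made. Shallow cells limit what can be called absent, and 1 sorted set a side leaves the spread between animals unmeasured.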
